A study of Mus musculus with 2 samples.

Results

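The genes described here are 10 collagen chains of the matrix around fibroblasts and blood vessels: Col1a1, Col1a2, Col3a1, Col5a2, Col12a1, Col14a1, Col4a1, Col4a2, Col15a1 and Col18a1. They were a fixed list of names among the 9127 gene symbols that both count tables held, and their values were summed over cells sorted into 5 classes by markers that include no collagen. The cells came from tumours of C57BL/6 mice. One library was wild type (WT), and the other, called the Myct1 knockout here, was from Cdh5-cre Myct1 fl/fl mice. There the promoter of Cdh5, the gene of the endothelial cadherin, drives Cre recombinase, which cuts the floxed Myct1 gene. The series title gives the driver as Cdh5-cre and the label of the sample as Cdh-cre. Each genotype was represented by 1 droplet library of cells pooled from 4 mice, so no test was possible and a difference between the libraries cannot be told apart from one between the genotypes. The labelled source was endothelial cells, but cells with endothelial markers were 6.38% of the WT and 3.66% of the knockout cells kept.

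Collagens are triple helices of 3 chains that are folded and hydroxylated in the endoplasmic reticulum, secreted, trimmed and crosslinked. Types I, III and V form the striped fibrils of connective tissue, and types XII and XIV sit on the surface of those fibrils. Type IV forms the sheet-like network of basement membranes, which endothelial and mural cells lay down together around a vessel. Types XV and XVIII carry sugar chains and lie in or beside basement membranes, and the end of type XVIII can be cleaved to endostatin, an inhibitor of vessel growth.

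Col4a1 and Col4a2 are shown first because they lie head to head and both were lower in the vessel cells of the knockout library. In GRCm38 with the GENCODE M21 annotation, Col4a1 runs on the minus strand at chr8:11198423-11312826 and Col4a2 on the plus strand at chr8:11312805-11449287, so the annotated first exons overlap by 22 bases. The stretch chr8:11312801-11312830 is printed on each strand, 5′ to 3′, with the overlapping bases in capitals. The third line shows chr8:11312761-11312790 on the plus strand, with a CCAAT motif in capitals that starts 32 bases before the annotated start of Col4a2. The sequences are RefSeq's, from GRCm38.p6, and 6 of the 10 genes had a promoter window there. CCAAT on either strand was found in 37.4% of the 32851 windows of 300 bases, so the match is a description only.
Shared start, Col4a2 strand: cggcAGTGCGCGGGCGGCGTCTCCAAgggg
Shared start, Col4a1 strand: ccccTTGGAGACGCCGCCCGCGCACTgccg
Upstream of Col4a2: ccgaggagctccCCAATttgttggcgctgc

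The other genes lie apart from each other, except that Col3a1 (chr1:45311538-45349706) and Col5a2 (chr1:45374321-45503282) are neighbours on opposite strands. Col1a1 is at chr11:94936224-94953042, Col1a2 at chr6:4504814-4541544, Col12a1 at chr9:79598991-79718831 and Col14a1 at chr15:55307750-55520803. Col15a1 is at chr4:47208161-47313167 and Col18a1 at chr10:77052178-77166548. Col18a1 overlaps Slc19a1 on the opposite strand, and it is not stated whether strand was used in counting. Slc19a1 stayed at or below 10.4 CPM in each class and library, where CPM, the usual depth-scaled unit, is a gene's share of the UMIs (unique molecular identifiers, counted molecules) of all shared genes, in parts per 1e6.

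The WT table held 10880 barcodes and 115519153 UMIs, and that of the knockout held 10700 barcodes and 145331950 UMIs. After filters 8120 WT and 8222 knockout cells were kept. The endothelial class held 518 WT and 301 knockout cells, and the mural class, the pericytes and smooth muscle cells that wrap vessels, held 90 and 24. Fibroblasts rich in Pi16, a gene of resting adventitial fibroblasts, numbered 1937 in WT and 20 in the knockout. Fibroblasts rich in Postn, the gene of periostin, numbered 460 and 49, and cells positive for the keratins Krt8 and Krt18 numbered 3246 and 6072. The median depth per cell lay between 5426 and 16903 UMIs in these classes. The 10 genes of highest fold included at least 2 markers of the class in each case. Cells were sorted by these same markers, so this does not test the classes. Myct1 had 936 UMIs in 385 of the 518 WT endothelial cells (74.3%), and 12 UMIs in all WT keratin positive cells; its level in the knockout library was not analysed here. The libraries shared 218 barcodes, 197 of them among the cells kept, and 15 of these were keratin positive in both.

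**Figure D1:**
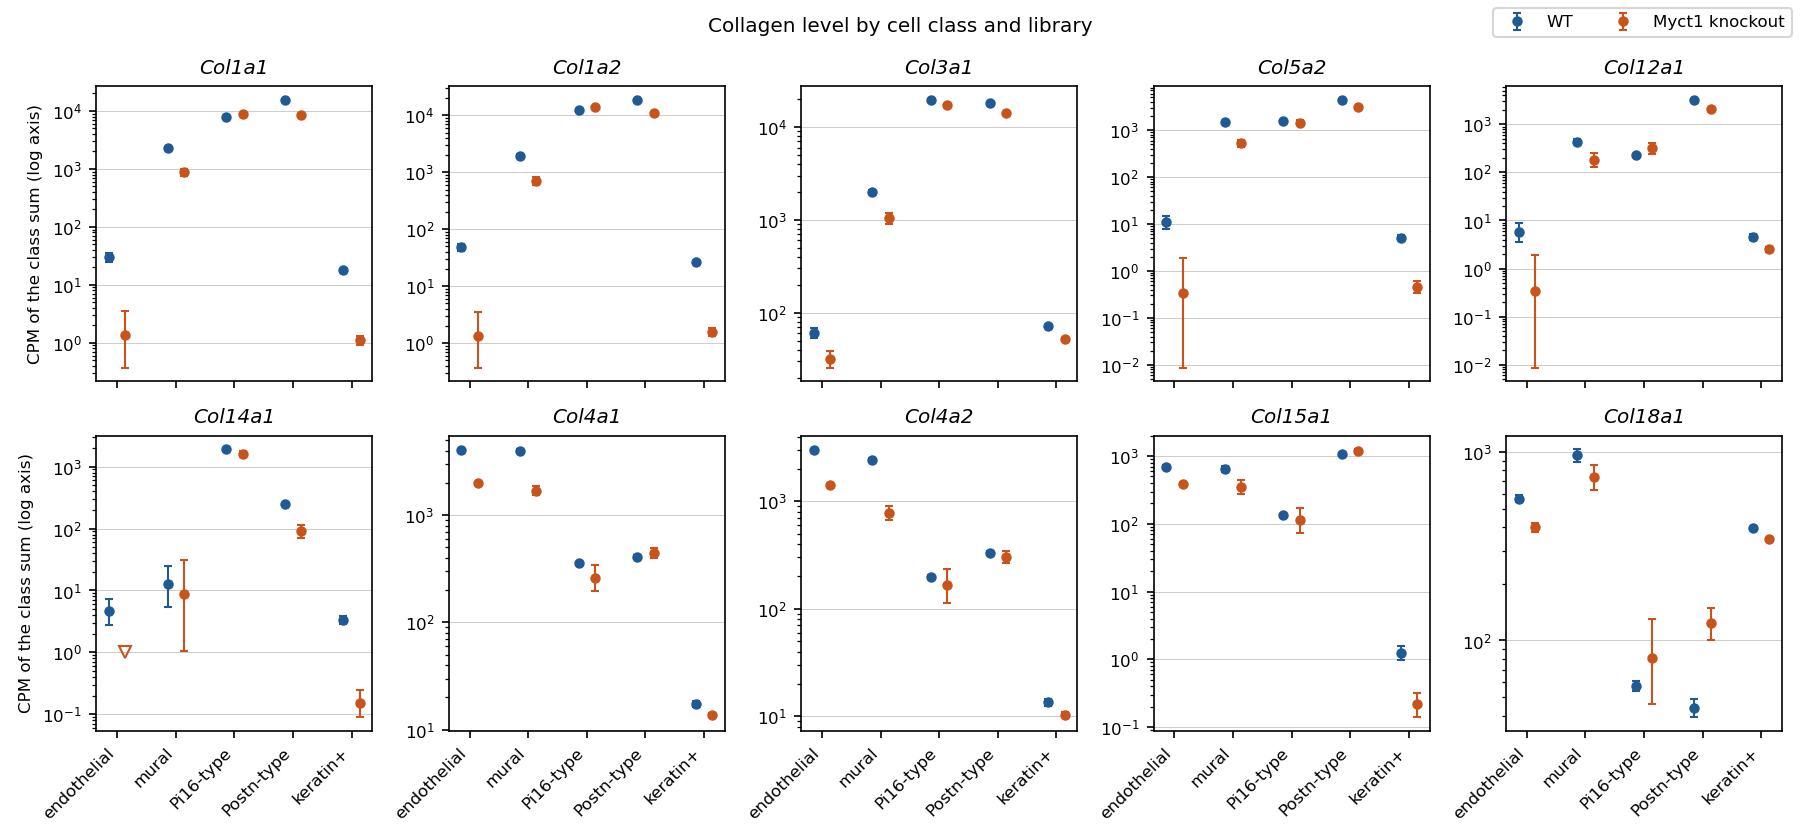
Level of each collagen in 5 marker-gated cell classes, as CPM of the summed class on log axes, for the WT library (blue) and the Myct1 knockout library (orange). Bars are exact Poisson 95% intervals, and the open triangle marks the limit that a count of 0 allows. Col4a1 was highest in endothelial and mural cells, and Col1a1 in the fibroblast classes.

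The chains of type I collagen were at their highest in fibroblasts. In WT, Col1a1 reached 15697 CPM in Postn-type fibroblasts (95% interval 15603 to 15791), 7768 in Pi16-type fibroblasts, 2249 in mural cells, 29.9 in endothelial cells and 17.8 in keratin positive cells. In the knockout library the same classes gave 8560, 8907, 880, 1.36 and 1.10 CPM. The Postn-type level was 2.02 times the Pi16-type level in WT, whereas the intervals of the 2 fibroblast classes overlapped in the knockout, at a ratio of Pi16-type over Postn-type of 1.04 (0.987 to 1.10). Col1a2, the partner chain, was also ordered Postn-type, Pi16-type, mural in WT, at 18964, 12354 and 1976 CPM. In the knockout its Pi16-type level of 14059 CPM stood above the Postn-type level of 10940 and the mural level of 710.

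The ratio of Col1a1 to Col1a2 UMIs differed more between cell classes than between the libraries. It was 0.629 in WT and 0.634 in knockout Pi16-type fibroblasts, with intervals of 0.625 to 0.633 and 0.597 to 0.673. It was 0.828 (0.821 to 0.834) and 0.782 (0.759 to 0.807) in Postn-type fibroblasts, where the intervals did not overlap. In mural cells it was 1.14 (1.05 to 1.23) and 1.24. Across single fibroblasts of any type the levels of the chains correlated at Pearson 0.89 in 2624 WT cells and 0.89 in 88 knockout cells. Cells of 1 library share its free RNA and depth, so these correlations are descriptions.

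Col3a1, the fibril chain of soft tissue and vessel walls, differed from type I in WT by being highest in Pi16-type fibroblasts, which in the knockout were first for all of Col1a1, Col1a2 and Col3a1. It stood at 19784 CPM in WT Pi16-type and 18371 in Postn-type fibroblasts, a ratio of 1.08 (1.07 to 1.08). In the knockout the levels were 17170 and 14269 CPM, a ratio of 1.20 (1.16 to 1.25). Mural cells held 2001 CPM in WT and 1041 in the knockout. Col5a2, a chain of type V collagen that nucleates type I fibrils, was 2.85 times higher in Postn-type than Pi16-type fibroblasts in WT (4456 against 1564 CPM) and 2.14 times in the knockout (3059 against 1433). Its WT mural level, 1486 CPM (1393 to 1584), overlapped the Pi16-type level.

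Col12a1 and Col14a1, the fibril-surface chains, went in opposite directions between the fibroblast types in both libraries. Col12a1 reached 3249 CPM in WT Postn-type and 226 in Pi16-type fibroblasts, and 2090 and 317 in the knockout. Mural cells held 436 and 183 CPM of Col12a1. Col14a1 was at 1908 CPM in WT Pi16-type and 251 in Postn-type fibroblasts, and at 1598 and 90.3 in the knockout. A Col14a1 UMI was present in 99.2% of WT Pi16-type and 63.9% of Postn-type cells, and in 100% and 49.0% in the knockout. After each cell was thinned to 3000 UMIs the Col14a1 shares were 97.1% and 37.9% in WT, and 89.5% of 19 and 10.2% of 49 cells in the knockout. In endothelial cells, 2.70% of WT cells held a Col14a1 UMI, at a median depth of 6292 UMIs against 8753 in Pi16-type cells. Col14a1 had 8 UMIs in the 90 WT mural cells and 2 in the 24 knockout mural cells.

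Ordering all fibroblasts by how many Postn-type markers minus Pi16-type markers they held gave graded levels. From the most Pi16-type bin (131 cells) to the most Postn-type bin (221 cells) of WT, Col12a1 went from 60.6 to 4352 CPM and Col15a1 from 27.0 to 1296. Col14a1 went from 1782 CPM, through a peak of 2024, to 87.3. Col5a2 went from 1224 to 5565 CPM and Col1a1 from 5989 to 16356, while Col3a1 stayed between 15786 and 19832. The 3 knockout bins shown held 11, 26 and 29 cells, the first fewer than the 20 needed for a class. There Col12a1 went from 940 to 2744 CPM, Col15a1 from 509 to 1294 and Col14a1 from 192 to 52.8, in the WT directions. Col5a2 (1478 to 3619 CPM) and Col1a1 (7557 to 9126) also rose as in WT. Col3a1 went from 11396 to 14381 CPM in the knockout, against 17900 and 18337 in the same outer bins of WT. In the most Postn-type bin Col15a1 was 1296 CPM in WT and 1294 in the knockout, whereas Col1a1 was 16356 and 9126. Col18a1 lay between 28.1 and 84.8 CPM in all WT bins, and at 266, 204 and 50.7 CPM in the 3 knockout bins from left to right. Over single WT fibroblasts of any type Col12a1 correlated with Col5a2 at 0.61 and with Col14a1 at -0.59, and over the 88 knockout fibroblasts at 0.65 and -0.43. These values pool types that differ in level. Within WT Pi16-type fibroblasts they were 0.26 and -0.01, and within WT Postn-type fibroblasts 0.52 and -0.35.

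**Figure D2:**
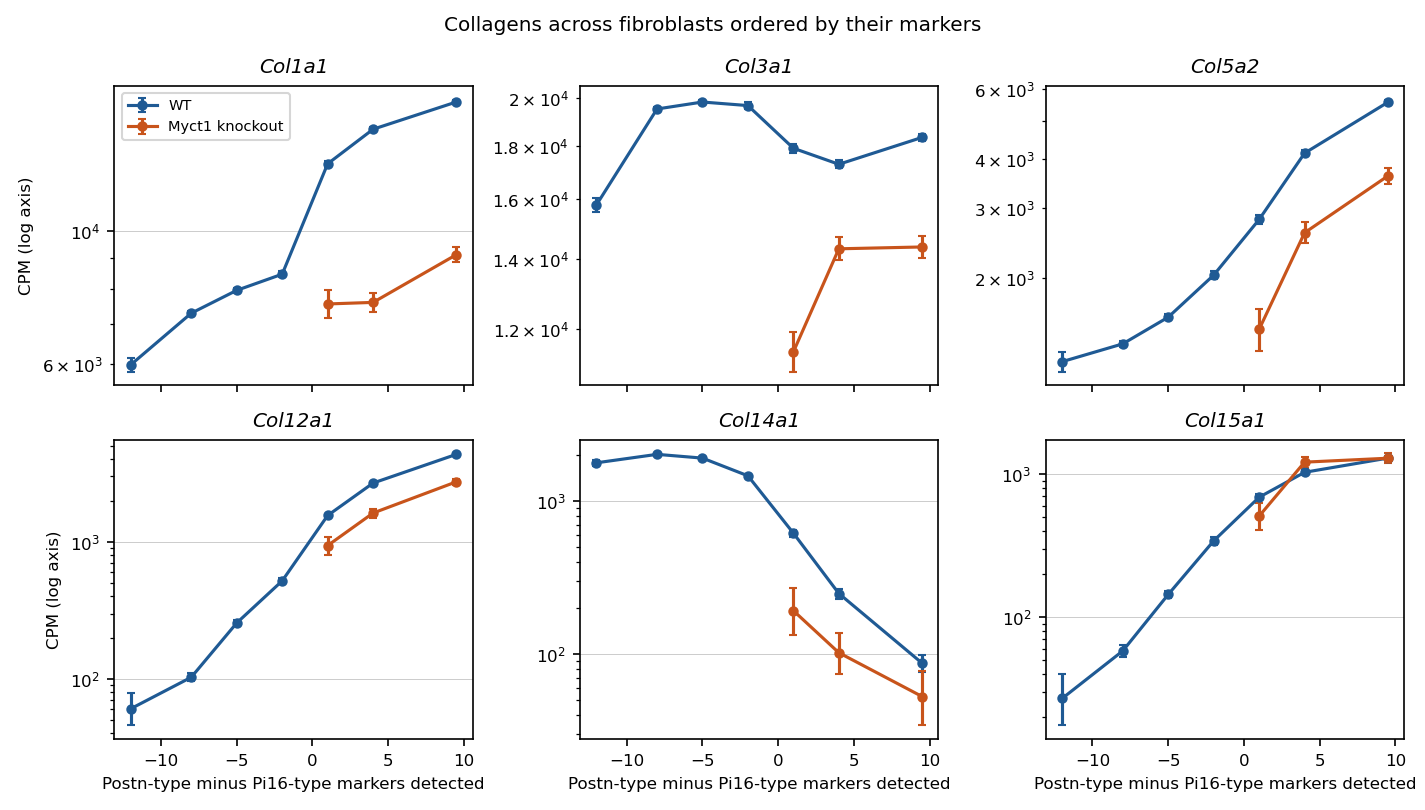
CPM (log axes) of 6 collagens in fibroblasts of any type, binned by the number of Postn-type minus Pi16-type markers detected, for WT (blue, 7 bins) and knockout (orange, 3 bins) cells. Bars are exact Poisson 95% intervals; Col12a1 and Col15a1 climb to the right, Col14a1 drops, and WT Col3a1 stays between 15786 and 19832 CPM.

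The basement membrane chains marked the vessel cells. Col4a1 was at 4064 CPM in WT endothelial cells (4000 to 4128) and 3983 in WT mural cells (3830 to 4142), levels whose intervals overlapped. It was far lower in Postn-type fibroblasts (410 CPM), Pi16-type fibroblasts (361) and keratin positive cells (17.5). In the knockout library the endothelial level was 1978 CPM (1928 to 2030), the mural level 1695 (1531 to 1872), and the other classes gave 444, 261 and 13.7. Col4a2 followed, at 3013 CPM in endothelial and 2420 in mural cells of WT, and at 1416 and 784 in the knockout. Nearly every endothelial cell held the transcripts: 515 of 518 WT cells and 300 of 301 knockout cells had a Col4a1 UMI, against 20.4% and 18.3% of the deeper keratin positive cells. The median cell held 4099 CPM of Col4a1 in WT and 1952 in the knockout, and the tenth of cells with most UMIs held 25.2% and 25.2% of them, so the lower level was spread over the class.

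The ratio of Col4a1 to Col4a2 UMIs in endothelial cells was 1.35 (1.32 to 1.38) in WT and 1.40 (1.34 to 1.45) in the knockout. In mural cells it was 1.65 (1.54 to 1.76) and 2.16 (1.81 to 2.59). The levels of the pair correlated at 0.73 over 518 WT and 0.64 over 301 knockout endothelial cells, and at 0.85 over 460 WT Postn-type fibroblasts, where both were low. The genes that went with Col4a1 most closely over endothelial cells, apart from Col4a2, included Sparc (0.55 in WT, 0.54 in the knockout), a collagen-binding matrix protein, and Hspg2 (0.38 and 0.45), the gene of the basement membrane proteoglycan perlecan. Not all were matrix genes. Cd93 (0.42 and 0.47) stood above Hspg2 in both libraries, as did Cdh5, a marker used for sorting these cells, in the knockout (0.46). The lowest value in the knockout was that of Rps24 (-0.42).

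Col15a1 was shared between stroma and vessels. It was highest in Postn-type fibroblasts, at 1078 CPM in WT (1053 to 1102) and 1199 in the knockout (1127 to 1275). Endothelial cells held 701 and 390 CPM, mural cells 654 and 353, and Pi16-type fibroblasts 134 and 116. The endothelial and mural intervals overlapped in both libraries. In mural cells Col15a1 was uneven, with a UMI in 47 of 90 WT cells and 18 of 24 knockout cells.

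Col18a1 was present at 43.9 CPM or more in every class. Its level was 957 CPM in WT mural cells, 564 in endothelial cells, 395 in keratin positive cells, 57.2 in Pi16-type and 43.9 in Postn-type fibroblasts. The knockout gave 736, 398, 347, 80.4 and 123 CPM in that order. It was the only one of the 10 genes at 100 CPM or more in keratin positive cells, 83.8% of which held a UMI in WT and 92.3% in the knockout. Thinned to 3000 UMIs per cell, these shares were 54.5% and 56.8%. Keratin positive cells held 70.4% of all Col18a1 UMIs in WT and 83.8% in the knockout, against 7.37% and 2.56% in endothelial cells. In WT keratin positive cells Col18a1 went with Timp2 (0.55) and Fn1 (0.53), genes of a metalloproteinase inhibitor and fibronectin; Fn1 was at 0.34 in the knockout.

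**Figure D3:**
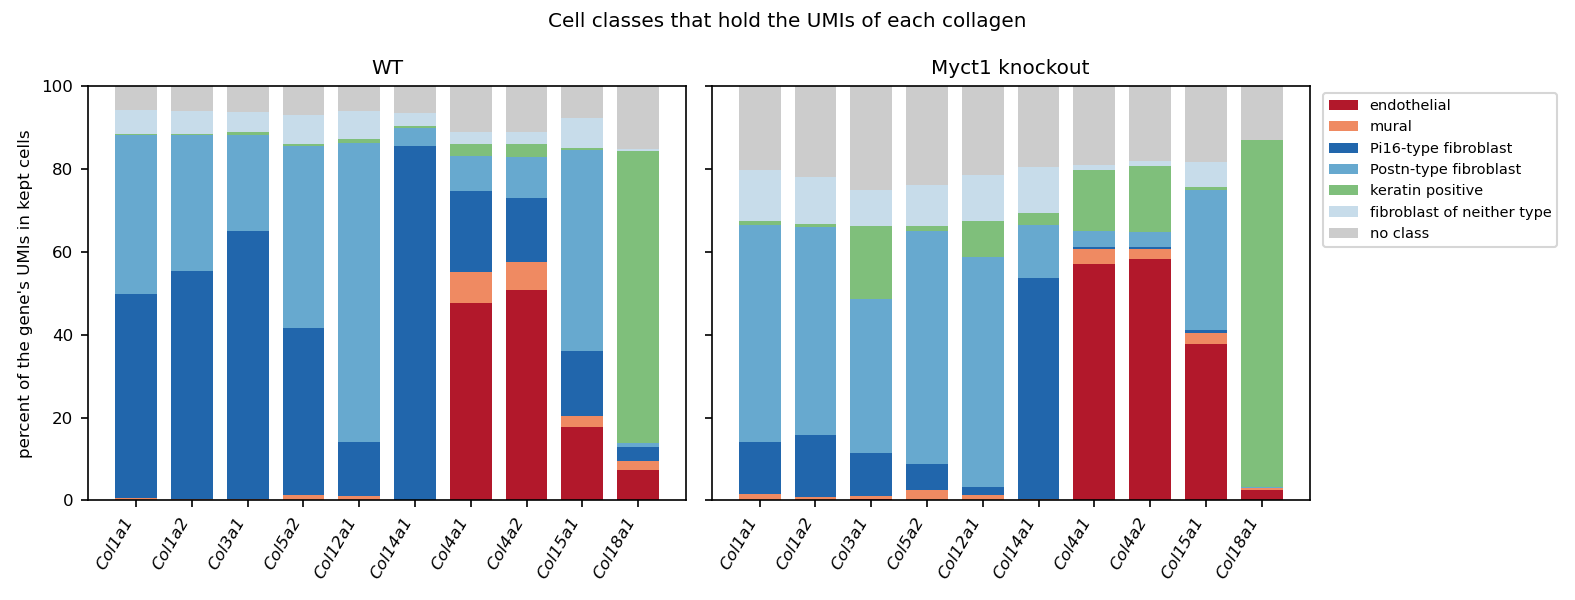
Percent of the UMIs of each collagen, over all cells kept, that came from each cell class, for WT (left) and the knockout (right). Endothelial cells held 47.5% and 57.0% of Col4a1, keratin positive cells 70.4% and 83.8% of Col18a1, and Pi16-type fibroblasts 85.5% and 53.3% of Col14a1.

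The class that held most UMIs was the same in both libraries for Col4a1, Col4a2, Col5a2, Col12a1, Col14a1 and Col18a1. It differed for Col1a1, Col1a2 and Col3a1, from Pi16-type in WT to Postn-type in the knockout, and for Col15a1, from Postn-type to endothelial. Pi16-type fibroblasts held 85.5% of Col14a1 UMIs in WT and 53.3% in the knockout, and 64.8% and 10.4% of Col3a1 UMIs. Postn-type fibroblasts held 38.3% and 52.3% of Col1a1 UMIs. Endothelial cells held 47.5% of Col4a1 in WT and 57.0% in the knockout, where they made up 3.66% of cells. Col15a1 was split in WT into 48.4% Postn-type, 17.7% endothelial and 15.6% Pi16-type, and in the knockout into 33.7%, 37.8% and 0.758%. Cells in no class held 5.85% of WT and 20.2% of knockout Col1a1 UMIs.

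Endothelial cells of the knockout library held less of the type IV chains per UMI. A gene was called different where its level was at least 2-fold apart, the 95% interval of the ratio (exact conditional binomial, counting error only) excluded no difference, and 1 library had 100 CPM or more. The log2 ratio of knockout over WT was -1.04 for Col4a1 (-1.08 to -0.995) and -1.09 for Col4a2 (-1.14 to -1.04). The type XV and XVIII chains were closer to no difference, at -0.85 for Col15a1 (-0.95 to -0.75) and -0.50 for Col18a1 (-0.61 to -0.40). Thus 2 of the 4 members at that level were called lower and none higher, against 14.1% of all 1968 genes tested called lower, 3% called higher and 17.1% in either direction. The median of those genes was -0.18, and 12.7% of them had a lower ratio than Col4a1.

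The call rests on the scale. Long transcripts were lower in this library in general, with a median of -0.71 over the 396 genes in the length bin of Col4a1 and Col4a2. Relative to genes of like length Col4a1 was at -0.33 and Col4a2 at -0.38, Col15a1 was at -0.20, and Col18a1 turned to 0.14. With TMM scaling, which moved every endothelial ratio by 0.29, the pair was at -0.75 and -0.80, and neither gene was called under either scale. Of all calls, 17.6% were higher in the knockout on the scale used here, 70.4% with TMM and 65.2% relative to genes of like length. Leaving out the 3% of cells with the highest doublet scores gave -0.94 and -0.99. The summed level of the 16 endothelial markers was itself 12101 CPM in WT and 7977 in the knockout, the keratin markers were at 27.8 and 76.8 CPM and 4 erythroid genes at 557 and 6.80. No endothelial marker was at 0 in either library. Their part in the result was not tested.

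The lower level was present in each kind of endothelial cell that could be separated. Cells were divided by which of 3 lists of 6 genes, for tip, capillary and venous cells, led in them. WT had 70, 284 and 58 such cells and the knockout 107, 92 and 35, so tip-led cells were 13.5% and 35.5% of the class. The Col4a1 log2 ratio was -0.95 (-1.02 to -0.87) in tip-led, -1.09 (-1.17 to -1.02) in capillary-led and -1.09 (-1.24 to -0.95) in venous-led cells. Col15a1 varied more, at -1.33 in tip-led, -0.41 in capillary-led and -1.44 in venous-led cells. In WT Col15a1 was highest in tip-led cells, at 1085 CPM against 527 in capillary-led and 819 in venous-led cells, and in the knockout the 3 levels were 430, 397 and 302.

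**Figure D4:**
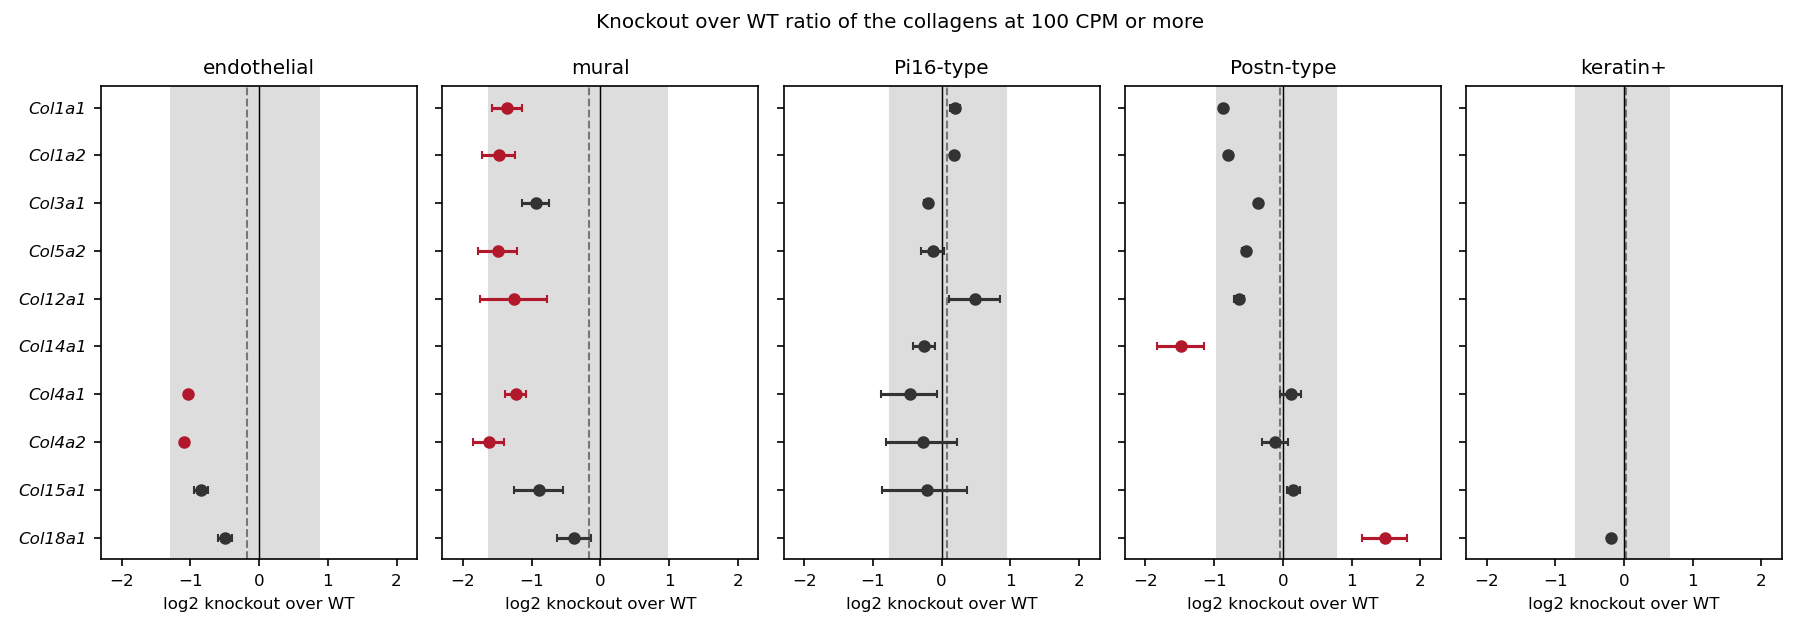
Log2 ratio of knockout over WT for collagens at 100 CPM or more in 1 library, by cell class, with exact 95% counting intervals; red points met the 2-fold call. The grey band spans the 5th to 95th percentile of all genes tested in the class and the dashed line is their median; Col4a2 in mural cells (-1.63) lay lowest and Col18a1 in Postn-type fibroblasts (1.49) highest.

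The mural sum of the knockout library was lower in fibril and basement membrane chains alike. The log2 ratio was -1.63 for Col4a2 (-1.86 to -1.40), -1.50 for Col5a2, -1.48 for Col1a2, -1.35 for Col1a1, -1.25 for Col12a1 and -1.23 for Col4a1. Col3a1 (-0.94), Col15a1 (-0.89) and Col18a1 (-0.38) were not called. Thus 6 of 9 members were called lower and none higher, against 18% of the 1940 genes tested called lower, 4.59% called higher and 22.6% in either direction. Only 24 knockout mural cells, with 229519 UMIs, stand behind these values. The tenth of cells with most UMIs held 46.1% of Col1a1 in WT and 47.0% in the knockout, where 1 cell held 20.3%. The median cell was lower in the knockout for the 6 called chains, as for Col1a1 at 1271 CPM in WT and 631. For Col15a1 it went the other way, at 126 CPM in WT and 292 in the knockout. None of the 6 was called relative to genes of like length, where the ratios ran from -0.89 for Col4a2 and Col1a2 to -0.50 for Col4a1; TMM scaling left 4, without Col12a1 (-0.97) and Col4a1 (-0.95). Thinned to 3000 UMIs per cell, Col12a1 was at -0.29 and not called. Of all calls, 20.3% were higher, against 55.5% with TMM and 55.3% relative to genes of like length. The summed mural markers were at 12750 CPM in WT and 6980 in the knockout. Fibroblast markers were at 2605 and 1272, Postn-type markers at 8812 and 7564 and keratins at 9.48 and 213. The part of these marker sums in the result was not tested.

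In Pi16-type fibroblasts none of the 9 members at 100 CPM or more was called, against 4.13% of 1793 genes called higher, 2.34% lower and 6.47% in either direction. Ratios ran from -0.46 for Col4a1 (-0.89 to -0.07) to 0.49 for Col12a1 (0.11 to 0.85), and Col1a1 and Col1a2 were at 0.20 and 0.19. The knockout sum came from 20 cells, so the intervals of the scarcer chains were wide, as for Col15a1 at -0.21 (-0.87 to 0.38).

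Postn-type fibroblasts of the knockout held less of the fibril and fibril-surface chains per UMI. Col1a1 was at -0.87 (-0.91 to -0.84), Col1a2 at -0.79, Col12a1 at -0.64, Col5a2 at -0.54 and Col3a1 at -0.36. Col4a1 (0.12, -0.04 to 0.27), Col4a2 (-0.12, -0.31 to 0.07) and Col15a1 (0.15, 0.06 to 0.25) lay near no difference. Relative to genes of like length Col1a1 was at -0.53, Col12a1 at -0.26 and Col3a1 at -0.02, while Col4a2 turned to 0.29 and with TMM scaling to 0.04. Of the 10 members Col14a1 was called lower, at -1.48 (-1.82 to -1.15), and Col18a1 higher, at 1.49 (1.15 to 1.81). Of 1693 genes tested 4.61% were called lower, 1.83% higher and 6.44% in either direction. The Postn-type class of the knockout held fewer Pi16-type markers, at 828 CPM against 1549 in WT, and the part of this in the Col14a1 value was not tested. Over fibroblasts of any type, the bins of marker difference held 192 CPM of Col14a1 in the knockout against 618 in WT, 102 against 249 and 52.8 against 87.3. These bins hold 11, 26 and 29 knockout cells and each span several marker counts, so they are not a test of that part.

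The Col18a1 value in Postn-type fibroblasts rests on few cells. In the knockout, 105 UMIs came from 20 of 49 cells, and the tenth of cells with most UMIs held 68.6% of them. The WT class had 301 UMIs in 151 of 460 cells. Thinned to 3000 UMIs, 12.2% of knockout and 10.0% of WT cells held a UMI. The ratio was 1.06 with 1 more marker required, 1.10 with at most 5% mitochondrial UMIs, 1.15 after thinning and 0.99 without the highest 3% of doublet scores, and was not called in any of these. Keratins, which mark the cells that hold most Col18a1, summed to 29.3 CPM in the WT and 103 in the knockout class. Their part in the result was not tested.

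Keratin positive cells had 1 member at 100 CPM or more. Col18a1 was at -0.19 (-0.21 to -0.16) and was not called, against 0.556% of 1438 genes called higher, 0.626% lower and 1.18% in either direction. Relative to genes of like length it was at 0.24 and with TMM scaling at 0.06.

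Low counts of fibroblast collagens in other cells differed between the libraries, and Col3a1 in knockout keratin positive cells did not follow the type I chains. In WT endothelial cells the 6 fibroblast collagens stood at 0.176% to 0.306% of the level in their highest fibroblast class. The other fibroblast genes compared ranged more widely, from 0.148% for Clec3b to 0.670% for Pi16. Among them Dcn and Postn, genes of fibroblast matrix proteins, stood at 0.266% and 0.191%. Free RNA in droplets gives cells a few UMIs of genes they do not express, and its part here was not tested. In knockout endothelial cells Col1a1 stood at 0.0153% (0.00416 to 0.0391%) and Col1a2 at 0.00967%, and Col14a1 and Dcn had 0 UMIs. For Col14a1, 0 of 301 cells allows a share of cells with a UMI of up to 0.997% by the limit of 3 counts, which does not limit the share of cells that express it. Col3a1 had 93 UMIs in 10 knockout endothelial cells, 0.184% of its fibroblast level, but 64.5% of them lay in 1 cell. Without that cell, left out after the data were seen, 33 UMIs and 0.0658% (0.0453 to 0.0924%) remained.

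**Figure D5:**
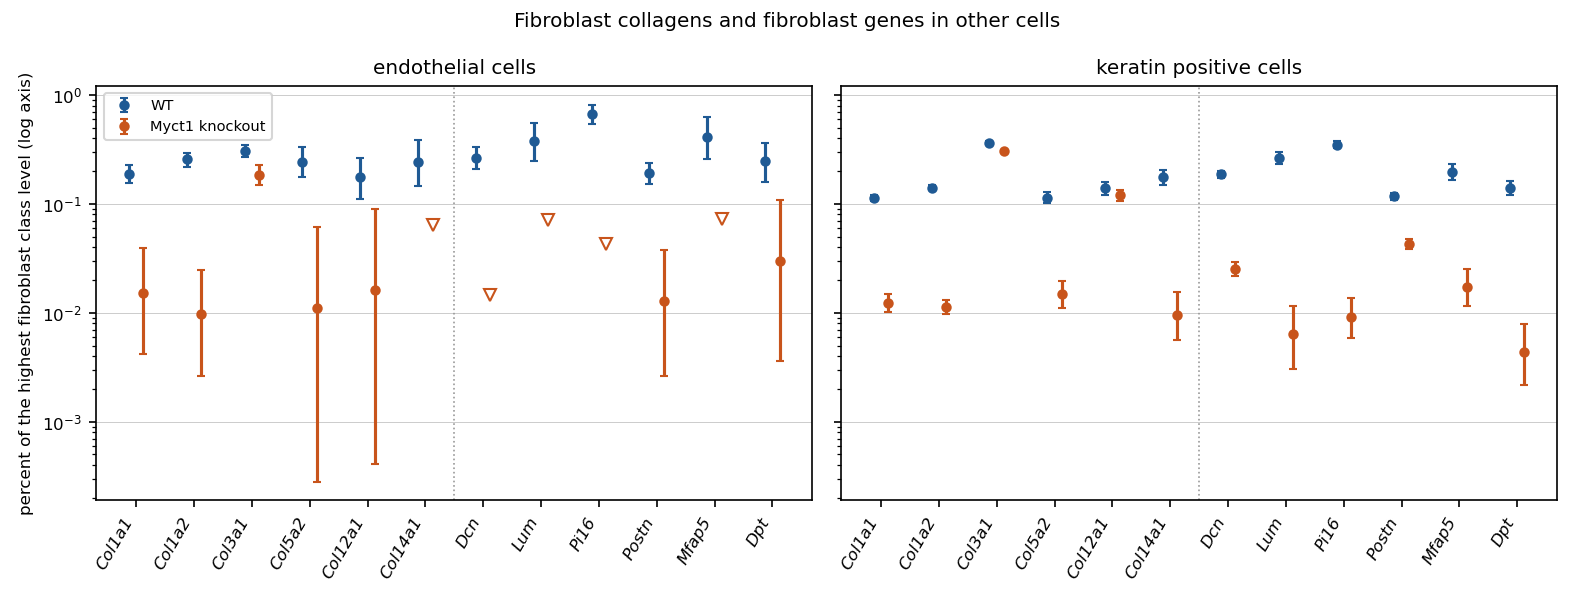
Level of 6 fibroblast collagens and 6 other fibroblast genes in endothelial (left) and keratin positive (right) cells, as percent of the level in the highest fibroblast class of the same library on a log axis. Bars are exact Poisson 95% intervals, and triangles mark the limit for a count of 0; in knockout keratin positive cells Col3a1 (0.305%) and Col12a1 (0.120%) stand above Col1a1 (0.0124%).

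In keratin positive cells the genes fell into 2 patterns. Col1a1 was at 0.113% of its fibroblast level in WT and 0.0124% in the knockout, Col1a2 at 0.141% and 0.0113% and Col14a1 at 0.176% and 0.00961%. Col3a1 was at 0.363% and 0.305%, and Col12a1 at 0.139% and 0.120%. In CPM, Col3a1 was at 71.8 in WT and 52.4 in the knockout (log2 ratio -0.45, -0.51 to -0.39). Col12a1 was at 4.51 and 2.50 CPM (-0.85, -1.10 to -0.59), and its highest fibroblast level was also lower in the knockout, at 2090 against 3249 CPM. The highest fibroblast class of Col1a1 and Col1a2 was Postn-type in WT and Pi16-type, with 20 cells, in the knockout. In knockout endothelial cells Col12a1 had 1 UMI, at 0.0163% against 0.176% in WT, so it did not stand with Col3a1 there. The ratio of Col3a1 to Col1a1 UMIs, 2.55 in WT and 1.93 in knockout Pi16-type fibroblasts, was 4.05 (3.76 to 4.35) in WT and 47.6 (39.8 to 57.4) in knockout keratin positive cells. Without the cell with most Col3a1 UMIs the knockout value was 50.2. In knockout endothelial cells the ratio was 23.3 (8.78 to 87.1), from 93 and 4 UMIs, and 11.0 (3.45 to 56.1) without the 1 cell named above.

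Col3a1 in knockout keratin positive cells was concentrated. A UMI was found in 1200 of 6072 cells (19.8%), and 515 cells with at least 3 UMIs (8.48%) held 85.2% of the transcript. In WT, 332 cells (10.2%) with at least 3 UMIs held 53.7%. Keratins, which the gate required, were lower in the 515 cells, at 689 CPM of Krt8 and 771 of Krt18 against 871 and 1002 in cells without Col3a1. The median depth was 16097 against 16952 UMIs. They held 5.71 CPM of Col1a1 and 13.3 of Dcn, against 0.639 and 0.399 in cells without Col3a1. Col6a1, a chain of the microfibril-forming type VI, was at 303 CPM in the 515 cells and 34.6 in cells without Col3a1, Mgp, the gene of matrix Gla protein, at 393 and 59.2, and Sparc at 547 and 155. Over the 6072 cells Col3a1 went most closely with Serpinf1 (0.54), Col6a1 (0.50) and Mgp (0.48), and over 3246 WT cells with Col6a1 (0.32), Sparc (0.31) and Mgp (0.30). Serpinf1 is one of the fibroblast markers used for sorting cells, and keratin positive cells were kept only where few such markers were detected.

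Other collagens and genes that act on collagens were followed as 5 lists. A list gene was counted where it had 20 or more UMIs in total, differed by at least 1.5-fold and had a ratio interval that excluded no difference. In endothelial cells, where 34.2% of 8234 genes were lower and 10.8% higher by that rule, the collagen-binding matrix proteins counted 8 lower and 1 higher of 12. Their median was -0.94, against -0.33 for all genes. Of these, Dcn (at least 18.8-fold lower, with 0 UMIs in the knockout), Postn, Tnxb and Lum are fibroblast genes at 20.3 CPM or less there, and Dcn, Lum and Postn were also markers for sorting the cells. Among the abundant members Hspg2 was at 1703 CPM in WT and 694 in the knockout (-1.29, -1.37 to -1.22) and Nid1, the gene of the laminin and type IV linker nidogen, was at 661 and 314 (-1.07). Against genes of similar length Hspg2 was at -0.58 and Nid1 at -0.44. The 1 higher gene was Fn1, the gene of fibronectin, at 422 and 660 CPM (0.64). Sparc was at 5540 and 5201 CPM (-0.09). The chain folding and hydroxylation list had 5 lower and 4 higher of 13, with P4ha2, a prolyl hydroxylase subunit, at 14.5 and 39.8 CPM (1.45) and Fkbp10, a folding isomerase, at -0.98. Propeptide removal and crosslinking had 2 lower and 1 higher of 6, other collagens 3 lower and 3 higher of 10, and collagen receptors 1 lower of 5, Itga1 (-0.69), an integrin subunit that binds collagens.

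In mural cells most list genes that differed were lower. Of 5772 genes 18.6% were lower by that rule and 5.89% were higher, and the median ratio was -0.34. Lower were 7 of 9 other collagens (median -1.38), with Col5a3 at -1.63 (-1.94 to -1.34) and Col6a3 at -1.38, and 7 of 8 genes of propeptide removal and crosslinking (median -1.65). Lox, the lysyl oxidase that starts crosslinking, had 89 UMIs in WT and 0 in the knockout mural cells, at least 10.8-fold lower, with the limit of 3 counts over the class. Its relatives Loxl3 and Loxl2 were at 278 against 69.7 CPM and 428 against 174 CPM. Also lower were 8 of 10 collagen-binding matrix proteins, including Nid1 (-1.64), 4 of 5 receptors, including Itga1 (-1.61), and 6 of 14 folding genes, including the collagen chaperone gene Serpinh1 (-0.75), with 1 folding gene higher, P4ha1 (0.64). Against genes of similar length Col5a3 was at -1.003, Col6a3 at -0.64, Nid1 at -1.01, Itga1 at -0.87, Loxl2 at -0.71, Serpinh1 at -0.38 and P4ha1 at 1.21.

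Postn-type fibroblasts showed a smaller shift. By that rule 15.3% of 8432 genes were lower and 7.46% higher (median -0.20). Of 9 genes of propeptide removal and crosslinking 6 were lower and none higher (median -0.95). Lox was at 2197 CPM in WT and 927 in the knockout (-1.24, -1.35 to -1.14), Loxl3 at -1.25 and Loxl2 at -0.95. Of the folding genes 7 of 14 were lower and none higher, Serpinh1 at -0.59 and Fkbp10 at 319 CPM in WT and 159 in the knockout. Of other collagens 5 of 15 were lower and 2 higher, Col5a1, the partner of Col5a2, at -1.08. Of binding proteins 4 of 12 and of receptors 2 of 5 were lower, with none higher in either list. Against genes of similar length Lox was at -0.92, Loxl3 at -0.94, Loxl2 at -0.55, Serpinh1 at -0.46, Fkbp10 at -0.83 and Col5a1 at -0.64.

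In Pi16-type fibroblasts few list genes differed, beside 3.3% of 8566 genes lower and 6.96% higher (median 0.06). Col8a1, a short-chain collagen of vessel and stromal matrix, was at 35.3 CPM in WT and 216 in the knockout (2.62, 2.13 to 3.06), and P4ha2 at 130 and 281 CPM (1.11). Loxl2 (0.85) and Lox (0.62) were higher, Col6a5 (-2.75) and Postn (-1.33) lower, and none of 6 receptors differed by this rule. In keratin positive cells, beside 18.4% of 8782 genes lower and 5.06% higher (median -0.25), 8 of 11 binding proteins were lower. They were led by Lum, Tnxb, Nid1 and Dcn at 13.5 CPM or less, of which Lum, Tnxb and Dcn are fibroblast genes. In WT, Nid1 was at 661 CPM in endothelial, 921 in mural, 1283 in Pi16-type and 565 in Postn-type cells. Of 14 folding genes 3 were lower and 1 higher, of 9 genes of propeptide removal and crosslinking 3 were lower, of 11 other collagens 2 and of 6 receptors 1.

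Each collagen also had neighbours in pattern among 2989 genes that were no collagen and no gate marker, by Pearson correlation of log2(CPM + 1) over the 10 class sums, which share the 2 libraries. Ctsk, the gene of the collagen-cutting protease cathepsin K, came first for Col1a1 (0.993) and Col1a2 (0.988). Gpr153 came first for Col3a1 (0.993), Slit3 for Col5a2 (0.990), Spon1 for Col12a1 (0.987) and Spon2 for Col14a1 (0.990). Epas1, which encodes a hypoxia-inducible factor abundant in endothelium, came first for Col4a1 (0.975), Dock6 for Col4a2 (0.981), Lrrc32 for Col15a1 (0.976) and Cpe for Col18a1 (0.964). Within the 10 collagens Col1a1 and Col1a2 had a correlation of 0.998 and Col4a1 and Col4a2 one of 0.997 over these sums.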

How the data were processed

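The authors deposited 1 table of raw UMI counts per library, made with Cell Ranger 2.1.1 and mm10 per the submitters' processing notes; the annotation release and any use of strand are not stated. The lowest maximum of a listed gene was 4 UMIs in a barcode, and 1376 WT and 536 knockout symbols were listed in 1 table alone, and the 9127 shared symbols were used. Members and gene lists were chosen with earlier results of these data known, and gate limits after the distributions of the markers, but not of the collagens, had been seen. Cells with fewer than 200 genes or over 10% mitochondrial UMIs were left out. A cell was endothelial with at least 7 of 16 markers, mural with 6 of 12, and fibroblast with 9 of 12, typed by 8 of 13 Pi16-type or 13 Postn-type markers. A mural cell could hold any number of fibroblast markers below 9, and Postn-type markers were not limited in it. A cell was keratin positive with at least 5 Krt8 and Krt18 UMIs per 10000, both detected, and few other markers; 505 WT and 640 knockout cells lay within 1 per 10000 of that limit, and 1642 and 1737 cells had no class.

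Counts were summed per class and library and divided by the class total (CPM). Levels carry exact Poisson, shares Clopper-Pearson and ratios exact conditional binomial 95% intervals, which cover counting error only, and the limit for a count of 0 is 3 counts. No test was possible and no p-value is given. A class needed 20 cells in each library. Called genes were at least 2-fold apart at 100 CPM or more; all 10 members are given, up to 4 per gene list were named by the interval bound nearest 0, and other list genes were named after their values were seen, as were the divisions of endothelial and of Col3a1-holding cells. Doublets were not removed. Scrublet in scanpy 1.11.5 scored over 0.3 in 119 of 8120 WT but only 12 of 8222 knockout cells (0.146%). From this low count it was taken not to work there, which was not tested. Leaving out the highest 3% of scores was added, but it ranks cells by the same scores. The knockout cells it leaves out are therefore not known to be doublets. Like-length ratios subtract the median of genes in the same of 20 transcript length bins (GENCODE M21, GRCm38). Thinning used 3000 UMIs per cell. The ratio, interval and call steps alone were tested, on class sums simulated with counting error only, as the intervals assume. Tools were R 4.3.3 with edgeR 4.0.16 (TMM factors only), and Python 3.11.15 with scipy 1.17.1, pandas 2.3.3, matplotlib 3.10.9 and numpy 2.4.6.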

Additional observations from a re-analysis of the deposited data

How the results depend on the processing

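No paired analysis was possible because each genotype had 1 library and the labels carry no replicate numbers, and for the same reason no library could be left out. Of 600 recomputed ratios 481 stayed within the interval first given. These include the ratios with no minimum level and with the 1.5-fold rule, settings that change only the call and cannot move a ratio. None of the called members changed sign, while some members not called did, such as Col18a1 in endothelial cells. The 2 calls in endothelial cells became 0 with TMM scaling, 0 in CPM without mitochondrial and ribosomal genes, 0 relative to genes of like length, 0 after thinning and 0 without the highest 3% of doublet scores, and 7 with no minimum level, where the 5 more are low fibroblast collagens. With no minimum level 1163 of all 9127 genes were called lower in this class and 393 higher. The 6 calls in mural cells became 0 relative to genes of like length. The 2 calls in Postn-type fibroblasts became 1 with the stricter gate, 1 with at most 5% mitochondrial UMIs, 1 after thinning and 1 without the highest 3% of doublet scores, each keeping Col14a1, and 5 with a 1.5-fold rule. The 0 calls in keratin positive cells became 5 with no minimum level, all lower, beside 419 lower and 88 higher of 9127 genes. After thinning, the endothelial log2 ratios were -0.92 for Col4a1 and -0.97 for Col4a2, just short of the 2-fold limit. For Col4a1 in endothelial cells the log2 ratio ranged from -1.09 to -0.33, and for Col14a1 in Postn-type fibroblasts from -1.66 to -1.08. The share of all calls that were higher in the knockout moved under TMM scaling from 20.3% to 55.5% in mural cells, 63.8% to 49.1% in Pi16-type, 28.4% to 59.5% in Postn-type and 47.1% to 94.6% in keratin positive cells. The stricter gate and thinning left under 20 knockout Pi16-type cells, and the 5% mitochondrial limit under 20 knockout mural cells, so these gave no value. Depth limits the knockout mural and Pi16-type sums, with 229519 and 198949 UMIs.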
